A study of Arabidopsis thaliana with 18 samples.

Results

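How the 12 h response to light depends on genotype was measured in the hypocotyl of Arabidopsis thaliana, the stem that lies below the cotyledons of a seedling. For each gene the interaction is the log2 response of hy1 (12 h minus 0 h) minus the log2 response of the wild type, WT (12 h minus 0 h). A positive value means that the gene responded more strongly upward, or less strongly downward, in hy1 than in WT. The contrast used 12 of the 18 libraries of the series, 3 in each of 4 groups: hy1 after 12 h in light, hy1 at 0 h in darkness, WT after 12 h in light and WT at 0 h in darkness. All 32833 genes of the read count table were considered and none was chosen for its values. Of these, 6452 had no read in any library, and 20955 passed a filter on low counts and were tested. The hy1 mutant is impaired in HY1, a haem oxygenase. The labels name neither the allele nor the age of the seedlings nor the quality of the light. Sample titles call the WT libraries mock and the hy1 libraries before treatment or dark to light, and a treatment that went along with genotype cannot be told apart from it. Libraries kept in darkness for 12 h were not analysed here, so a response to light cannot be told apart from elapsed time or time of day.

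Phytochromes are photoreceptors for red and far-red light that carry a bilin chromophore, and HY1 makes the precursor of that chromophore from haem. In darkness the PIF transcription factors keep the hypocotyl elongating, partly through auxin synthesis and auxin response genes, and hold back genes of greening. Active phytochrome leads to the turnover of PIFs, and together with the blue-light receptors it restrains the COP1 and SPA proteins, so that HY5 and related factors build up and turn on light-induced genes such as those of flavonoid synthesis. Light also sets the circadian clock, whose morning and evening factors repress one another.

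Library totals ran from 38469946 to 59905064 counts, and levels are given as CPM, read counts scaled to the size of the library. Whether the replicates were grown separately is not stated in the labels, and the p-values cover only how far these samples spread, which may be technical. The replicates of WT at 12 h stood apart from one another. Across genes, which are not independent replicates, WT 12 h replicate 1 correlated with replicate 2 at r = 0.947 and with replicate 3 at 0.968, and replicates 2 and 3 correlated with each other at 0.978, while pairs within the other 3 groups correlated at 0.987 to 0.991. Genes whose exons add up to more than 400 and at most 800 bases received 1.36% and 1.53% of the counts in WT 12 h replicates 2 and 3, against 1.93% to 2.78% in the other 10 libraries. A second fit without these 2 libraries is set beside the counts below, and it leaves WT with replicate 1 alone at 12 h, assumed to vary like the other groups. Which of the 3 replicates represents WT at 12 h cannot be told from the files. RNA came from whole hypocotyls, so fewer cells of a type and less RNA per cell cannot be told apart. HY1 (AT2G26670, chromosome 2, 11341548 to 11343693, plus strand, TAIR10 build) had 24.3, 21.1 and 20.2 CPM in hy1 at 12 h and 35.3, 36.3 and 31.6 CPM in hy1 at 0 h, against 34.01, 25.5 and 23.4 CPM in WT at 12 h and 42.4, 44.5 and 47.9 CPM in WT at 0 h. Its transcripts were therefore present in every hy1 library. In darkness HY1 was lower in hy1 than in WT (-0.39 on the log2 scale, adjusted p = 0.041). Its interaction was 0.051 ± 0.18, adjusted p = 0.86. HO2 and HY2, the other tested genes of chromophore synthesis, had interactions of 0.062 ± 0.26 and -0.13 ± 0.33 that were not called either.

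With all libraries, 2835 of the 20955 genes had an interaction at adjusted p under 0.05, which is 13.5% of the genes tested and is called a called interaction below. Of these, 1411 (6.73% of genes tested) were positive and 1424 (6.8%) negative, and 1584 had an absolute value of at least 1 on the log2 scale. Without WT 12 h replicates 2 and 3, 1134 of 21593 genes (5.25%) were called, 726 positive (3.36%) and 408 negative (1.89%). The calls shared by both fits numbered 957 (4.57%), 605 positive (2.89%) and 352 negative (1.68%), and none of the 2835 turned its sign. When WT 24 h replicate 3, which belongs to none of the 4 groups of the contrast, was left out as well, 2678 genes were called and 1741 of them were shared with the fit to all libraries. The last gene inside the threshold was AT1G63720 (adjusted p = 0.0499, interaction -2.19) and the first one outside was AT1G55960 (adjusted p = 0.050007, interaction 0.40). With upper-quartile scaling, which puts the median interaction of all genes at 0.125 in place of 0.019, 1806 calls were positive and 939 negative. Leaving out 1 library at a time gave 1661 calls (without hy1 0 h replicate 2) to 2273 in 11 of 12 fits, and 8626 without WT 12 h replicate 1. For comparison, hy1 differed from WT in 6853 genes at 12 h (32.7%: 14.9% higher and 17.8% lower in hy1) and in 5154 genes at 0 h (24.6%: 12.2% higher and 12.4% lower). The 12 h response was called in 9263 genes in hy1 (44.2%: 22.9% up and 21.3% down) and in 11240 genes in WT (53.6%: 28.3% up and 25.3% down). Without WT 12 h replicates 2 and 3, the genotypes differed in 1600 genes at 12 h (7.41%: 4.06% higher and 3.35% lower) and in 6744 at 0 h (31.2%: 14.8% higher and 16.5% lower), and the response was called in 50.1% of genes in hy1 and 35.8% in WT. These comparisons share libraries, so the classes below describe where the groups stood and are not separate evidence.

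The 2835 genes were sorted by whether the genotypes differed in light, in darkness or in both. Of them, 1022 (36.0%) were called between hy1 and WT at 12 h and not at 0 h, which are genes whose light response differed with no called difference to start from. A further 1142 (40.3%) were called at 0 h and not at 12 h. Another 347 (12.2%) were called at both times with opposite signs, 153 (5.397%) at both with the same sign and 171 (6.03%) at neither. The absolute difference between the genotypes was larger at 0 h in 1521 of the called genes and at 12 h in 1314, and among the 957 genes called in both fits it was larger at 0 h in 609. Without WT 12 h replicates 2 and 3, 186 of the 1022 genes, 408 of the 1142, 276 of the 347, 75 of the 153 and 12 of the 171 were still called. The genes called between genotypes at 0 h with no called interaction formed a separate group of 3512, of which 1788 were also called at 12 h with the same sign and none with the opposite sign.

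**Figure D1:**
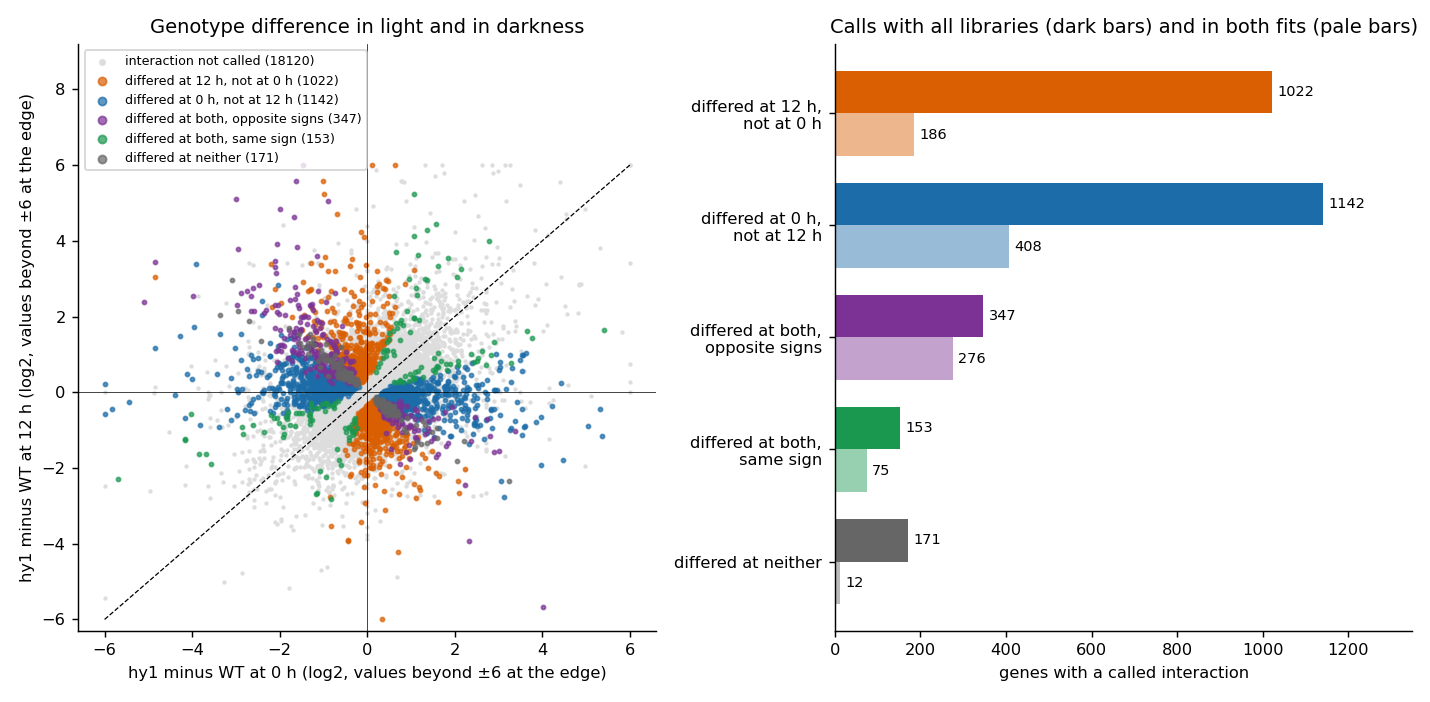
Left, each point is 1 gene, placed by the log2 difference hy1 minus WT at 0 h (x axis) and at 12 h (y axis); the dashed line marks equal differences, grey points are genes with no called interaction and colours mark the classes. Right, the number of genes per class with all libraries (dark bars, 1022, 1142, 153, 347 and 171) and also called without WT 12 h replicates 2 and 3 (pale bars, 186, 408, 75, 276 and 12).

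By the responses themselves, 1008 of the 2835 genes changed in WT and passed no threshold in hy1, and 668 changed in hy1 and passed none in WT. In 621 genes both genotypes changed the same way with the larger value in WT, and in 325 with the larger value in hy1. In 195 genes the genotypes changed in opposite directions, 101 of them up in hy1 and down in WT and 94 down in hy1 and up in WT. Neither response was called in 18. The gene lists used below were drawn up with earlier results of these data known, so counts over them are descriptions. Each list's count is read against the shares of all genes given above.

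Early auxin response genes fell after 12 h in both genotypes and fell less in hy1, from a lower dark level. The auxin response list holds early auxin-induced genes: Aux/IAA repressors, SAUR genes that promote cell expansion and GH3 enzymes that conjugate auxin to amino acids. Of its 30 tested members, 25 had a positive interaction and none a negative one, and 19 were positive in both fits, with a median interaction of 2.598 (all genes 0.019) and of 2.29 without WT 12 h replicates 2 and 3. In darkness 28 of the 30 were lower in hy1 (median -1.46), and at 12 h 17 were higher in hy1 (median 1.07). After 12 h, 27 of the 30 had fallen in hy1 and 29 in WT. Of the 25 called members, 16 differed at both times with opposite signs, 8 at 0 h and not at 12 h, 1 at neither and none at 12 h alone. SAUR19 had no read in WT at 12 h, and the median was the same with that group set to a floor of 6 counts.

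GH3.5 and GH3.3 carried this pattern at high counts. GH3.5 (AT4G27260) had 28.7, 31.7 and 27.02 CPM in hy1 at 12 h and 104, 114 and 113 CPM in hy1 at 0 h, against 14.8, 18.6 and 18.04 CPM in WT at 12 h and 225, 233 and 216 CPM in WT at 0 h. It was the lowest in WT at 12 h and the highest in WT at 0 h, with hy1 between them at both times and no overlap between genotypes at either time. Its interaction was 1.79 ± 0.17, adjusted p = 2.5e-05, and 2.02 ± 0.21, adjusted p = 0.00021 without WT 12 h replicates 2 and 3. GH3.3 (AT2G23170) had 14.5, 17.1 and 14.1 CPM in hy1 at 12 h and 35.9, 32.004 and 54.9 CPM in hy1 at 0 h, against 6.76, 4.12 and 5.83 CPM in WT at 12 h and 113, 104 and 96.4 CPM in WT at 0 h. The order of the groups was the same, and the interaction was 2.797 ± 0.31, adjusted p = 7e-05. The bases upstream of GH3.5 are printed because this gene had the smallest adjusted p among the called auxin list members whose promoter window holds an auxin response element, TGTCTC, which auxin response factors bind. The window is the 250 bases before the gene start (chr4:13653329-13653578, TAIR10, plus strand, 5′ to 3′), and the capitals mark TGTCTC, whose first base lies 47 bases before the gene start.
GH3.5: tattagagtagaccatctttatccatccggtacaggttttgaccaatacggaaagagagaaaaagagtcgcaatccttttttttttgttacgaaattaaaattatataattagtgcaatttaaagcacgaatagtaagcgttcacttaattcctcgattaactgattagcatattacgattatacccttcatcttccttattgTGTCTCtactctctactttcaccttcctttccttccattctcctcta
The element, searched on both strands, was in the windows of 13 of the 30 auxin list members (43.3%), against 10.6% of the 20886 genes tested with a window. It was in 15.4% of the windows of genes positive in both fits and in 13.6% of those negative in both fits.

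Among the SAUR genes, SAUR15 and SAUR66 lie apart from the near-identical SAUR19 to SAUR24 cluster, whose reads cannot be assigned with certainty. SAUR15 had an interaction of 6.31 ± 0.76, adjusted p = 0.00014, made up of a response of -1.599 in hy1 and -7.905 in WT. SAUR66 had 3.27 ± 0.43, adjusted p = 0.00023, with responses of -1.58 and -4.84. SAUR23, in the cluster, had 0.839, 1.2996 and 1.51 CPM in hy1 at 12 h and 3.08, 2.52 and 3.14 CPM in hy1 at 0 h, against 0.187, 0 and 0.0412 CPM in WT at 12 h and 10.01, 12.1 and 14.5 CPM in WT at 0 h. WT kept 10 reads in all 3 libraries at 12 h while hy1 kept 180, so the size of its fitted interaction (5.98 ± 0.71) rests on few WT reads. SAUR19 had no read in WT at 12 h, so its level there was at least 7.77-fold lower than in hy1 at 12 h, by a floor of 6 counts over the group (3 fragments, whose 2 mates were counted singly). Among the Aux/IAA repressors, IAA29 (3.16 ± 0.52, adjusted p = 0.0013), IAA6 (3.06 ± 0.46, adjusted p = 0.00069) and IAA19 (2.22 ± 0.40, adjusted p = 0.0026) had the larger positive values, and IAA7 (0.74 ± 0.16, adjusted p = 0.0069) a smaller one. IAA7 was not called without WT 12 h replicates 2 and 3 (adjusted p = 0.064), nor was SHY2, another Aux/IAA repressor (adjusted p = 0.074).

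The list of genes induced by PIFs or by shade moved in the same way. Of its 16 members, 12 had a positive interaction, 1 a negative one, and the 12 positive calls held in both fits (median 1.75 with all libraries, 1.796 without WT 12 h replicates 2 and 3). In darkness 11 of 16 were lower in hy1 and 3 higher, and at 12 h 11 were higher and none lower. All 16 fell in WT, and 13 fell in hy1. HB4, HAT1, HAT2, HAT3 and HB-2 encode homeodomain-leucine zipper factors of class II, which are induced by shade. HB4 (AT2G44910) had 1.36, 1.52 and 2.47 CPM in hy1 at 12 h and 2.201, 1.35 and 1.97 CPM in hy1 at 0 h, against 0.632, 0.429 and 0.124 CPM in WT at 12 h and 8.87, 9.07 and 9.61 CPM in WT at 0 h. It fell in WT (-4.55 ± 0.44, adjusted p = 4.4e-07), its response in hy1 was not called (-0.05 ± 0.38, adjusted p = 0.93), and the interaction was 4.504 ± 0.57, adjusted p = 0.0002. HAT2 (AT5G47370) had 16.1, 17.7 and 17.96 CPM in hy1 at 12 h and 46.7, 49.03 and 42.5 CPM in hy1 at 0 h, against 13.8, 12.6 and 12.5 CPM in WT at 12 h and 78.9, 84.6 and 88.96 CPM in WT at 0 h. Here both genotypes fell, by a log2 response of -1.42 in hy1 and -2.696 in WT, and the interaction was 1.28 ± 0.13, adjusted p = 4.3e-05. HAT1 (3.01 ± 0.42), HAT3 (1.95 ± 0.21) and HB-2 (1.38 ± 0.32) were called too, as were PAR1 (4.44 ± 0.71) and PAR2 (3.31 ± 0.79), regulators that limit shade elongation, and PRE1 (4.43 ± 0.78), a helix-loop-helix protein that promotes it. YUC9, an auxin synthesis enzyme that PIFs can induce, was the 1 negative call (-1.31 ± 0.29, adjusted p = 0.0081): it was higher in hy1 in darkness, at 17.3, 20.7 and 16.8 CPM against 6.47, 5.89 and 4.94 CPM in WT, and fell to 1.74, 1.52 and 1.298 CPM in hy1 at 12 h, against 1.12, 0.964 and 1.48 CPM in WT. It was not called without WT 12 h replicates 2 and 3 (adjusted p = 0.058).

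HAT2 had the smallest adjusted p among the called members of this list whose 250-base window holds CACATG, the PBE box that PIFs can bind, and that window is therefore shown (chr5:19218008-19218257, TAIR10, minus strand, 5′ to 3′). The capitals mark CATGTG, the same box read on the other strand, with its first base 118 bases before the gene start.
HAT2: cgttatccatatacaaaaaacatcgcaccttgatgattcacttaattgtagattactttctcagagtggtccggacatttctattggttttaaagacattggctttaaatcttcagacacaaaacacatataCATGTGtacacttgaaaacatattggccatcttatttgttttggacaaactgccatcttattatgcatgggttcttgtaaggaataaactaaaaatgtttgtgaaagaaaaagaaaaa
CACATG on either strand was in 5 of the 16 windows of this list (31.25%) and in 16 of the 30 of the auxin list (53.3%), against 10.95% over all windows. Among genes positive in both fits the share was 20.8%, and among those negative in both fits 9.66%. A match describes the letters and not a bound site.

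Genes of auxin synthesis and transport were called less uniformly, with 4 of 16 positive, 2 negative and 1 called in both fits. That 1 was ABCB19, an auxin efflux transporter, with 152, 171 and 147 CPM in hy1 at 12 h and 289, 279.7 and 295 CPM in hy1 at 0 h, against 130.2, 84.7 and 89.5 CPM in WT at 12 h and 499.6, 523 and 447 CPM in WT at 0 h. Its interaction was 1.39 ± 0.24, adjusted p = 0.0021, and it too was lower in hy1 in darkness and higher in hy1 at 12 h. YUC5, an auxin synthesis enzyme, had an interaction of -2.205 ± 0.46, adjusted p = 0.006, and LAX3, an auxin influx carrier, 0.74 ± 0.16, adjusted p = 0.0069. Neither was called without WT 12 h replicates 2 and 3, at adjusted p = 0.051 and 0.059.

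Cell wall loosening genes included several with this crossing pattern. Of 20 expansins and XTHs (wall-loosening proteins and xyloglucan-remodelling enzymes), 7 had a positive and 3 a negative interaction, and 5 positive and 0 negative calls held in both fits. XTH16 (AT3G23730) had 12.3, 15.98 and 13.3 CPM in hy1 at 12 h and 14.5, 10.4 and 11.9 CPM in hy1 at 0 h, against 1.61, 6.37 and 2.18 CPM in WT at 12 h and 51.1, 40.1 and 44.3 CPM in WT at 0 h. The 2 genotypes did not overlap at either time, and they stood in opposite order. The response was called in WT (-3.75 ± 0.39, adjusted p = 9.2e-07) and not in hy1 (0.18 ± 0.34, adjusted p = 0.71). The interaction was 3.93 ± 0.51, adjusted p = 0.00023, and 4.999 ± 0.40, adjusted p = 3.9e-05 without WT 12 h replicates 2 and 3. EXPA8 had 3.43 ± 0.63, adjusted p = 0.0029 and EXPA6 2.39 ± 0.46, adjusted p = 0.0039. EXPA1 had 1.05 ± 0.22, adjusted p = 0.0065, with a called difference at 0 h (-0.94) and none at 12 h (0.11). The 3 negative members, TCH4 (-1.65 ± 0.51), XTH23 (-1.17 ± 0.32) and XTH33 (-0.75 ± 0.23), were not called without WT 12 h replicates 2 and 3.

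**Figure D2:**
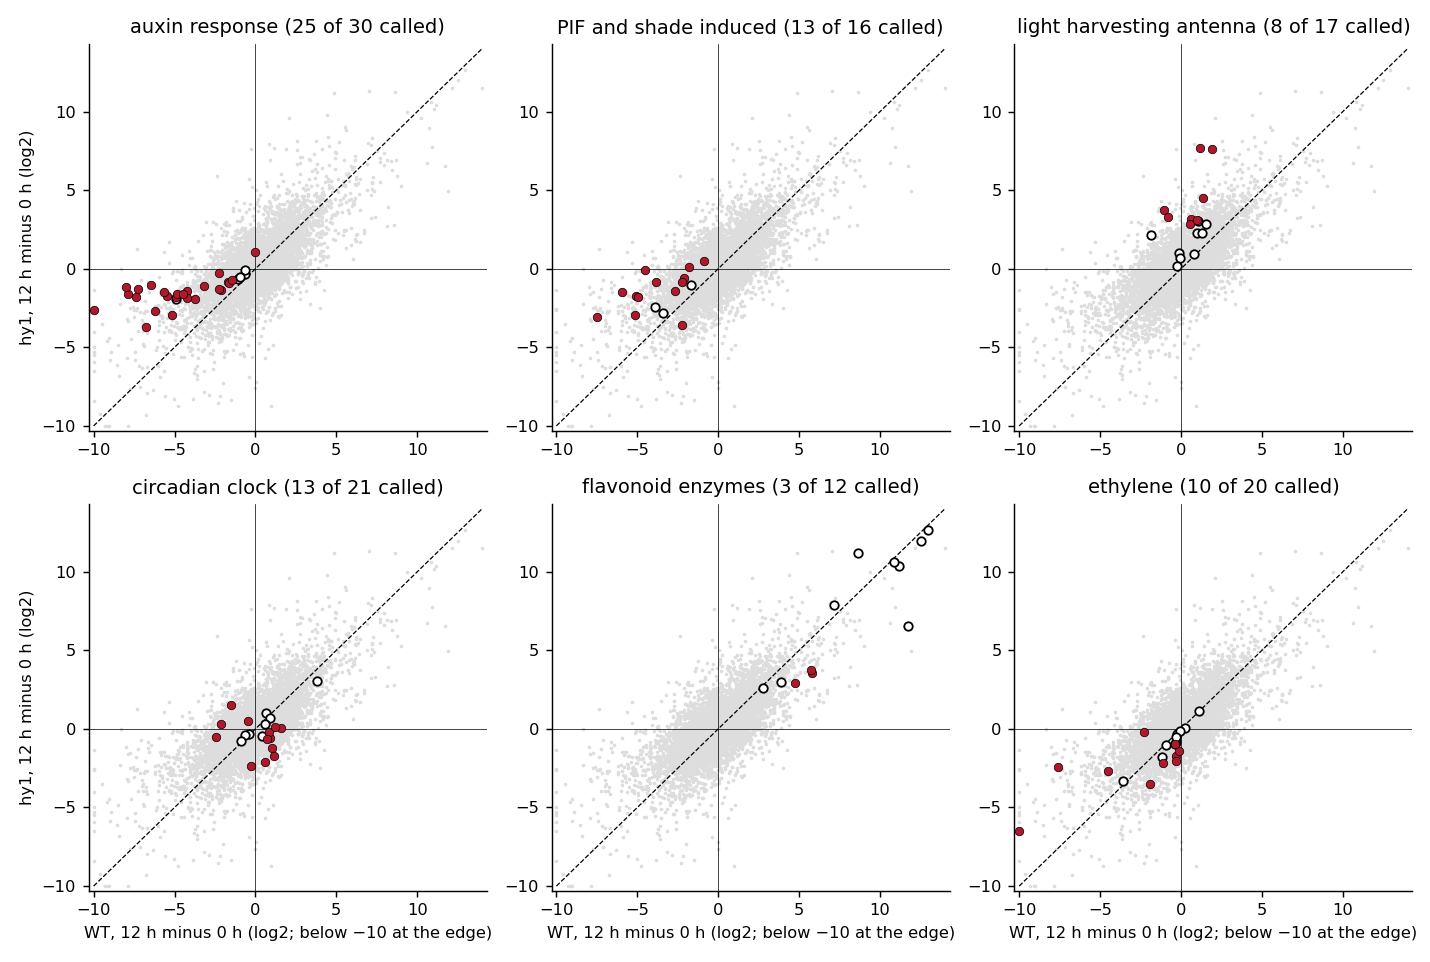
Each panel plots the 12 h response in WT (x axis, log2) against that in hy1 (y axis, log2) for all genes tested (grey), for the members of 1 list (circles) and for its members with a called interaction (red). Points above the dashed line of equal response have a positive interaction: 25 of 30 auxin response and 12 of 16 PIF and shade members lie above it as called genes, while the called clock members lie on both sides (4 above, 9 below) and the 3 called flavonoid enzymes lie below.

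Clock genes were called in both directions. Of the 21 members of the list, 4 were positive and 9 negative, and 4 and 7 were called in both fits (median -0.74, and -0.47 without WT 12 h replicates 2 and 3). In darkness 11 of 21 were higher in hy1 and none lower, and at 12 h 7 were higher and 10 lower. LHY (AT1G01060), a morning MYB-like factor, had 96.4, 109.9 and 142 CPM in hy1 at 12 h and 32.9, 42.1 and 44.8 CPM in hy1 at 0 h, against 5.92, 11.7 and 8.88 CPM in WT at 12 h and 26.6, 22.5 and 27.4 CPM in WT at 0 h. It rose in hy1 (1.54 ± 0.21, adjusted p = 2.2e-05) and fell in WT (-1.53 ± 0.21, adjusted p = 2.4e-05), giving an interaction of 3.07 ± 0.30, adjusted p = 2.9e-05. CCA1, its close relative, had 2.47 ± 0.25, adjusted p = 3.5e-05, with a response of 0.31 in hy1 and -2.16 in WT. RVE8 (0.95 ± 0.21, adjusted p = 0.0077) and LNK2 (1.93 ± 0.25, adjusted p = 0.0002), an activator of evening genes and its coactivator, were the remaining positive members.

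The negative clock members included pseudo-response regulators, members of the evening complex, GI and LNK1. GI (AT1G22770), an evening protein that acts in the clock and in flowering, had 47.98, 32.04 and 22.2 CPM in hy1 at 12 h and 109, 121 and 112 CPM in hy1 at 0 h, against 263, 247 and 273 CPM in WT at 12 h and 119.6, 116 and 118 CPM in WT at 0 h. The genotypes overlapped at 0 h and were far apart at 12 h. GI fell in hy1 (-1.74 ± 0.18, adjusted p = 1.5e-06) and rose in WT (1.14 ± 0.18, adjusted p = 7.3e-05), with an interaction of -2.89 ± 0.26, adjusted p = 1.5e-05 and no called difference in darkness (-0.047 ± 0.18, adjusted p = 0.89). LNK1, a morning coactivator related to LNK2, showed the same opposite responses (-1.24 in hy1 and 1.002 in WT, interaction -2.24 ± 0.20, adjusted p = 1.5e-05), though it overlaps a gene on the opposite strand and the counts ignore strand. PRR3, a pseudo-response regulator, also fell in hy1 (-0.59) and rose in WT (0.89), with an interaction of -1.48 ± 0.13, adjusted p = 1.3e-05. Of the other regulators of that family, PRR9 (-2.64 ± 0.27), PRR7 (-2.05 ± 0.25) and TOC1 (-1.07 ± 0.15) were called in both fits. PRR5 (-1.51 ± 0.33) and ELF3 (-1.103 ± 0.26), part of the evening complex, were called with all libraries alone (adjusted p = 0.19 and 0.27 without WT 12 h replicates 2 and 3). LUX (AT3G46640), the DNA-binding protein of the evening complex, had 68.2, 62.4 and 52.1 CPM in hy1 at 12 h and 96.8, 93.5 and 89.98 CPM in hy1 at 0 h, against 134, 145 and 134 CPM in WT at 12 h and 79.9, 80.2 and 87.7 CPM in WT at 0 h. Its genotypes did not differ at 0 h by the test (0.18 ± 0.1, adjusted p = 0.22), and the interaction was -1.35 ± 0.14, adjusted p = 4.2e-05.

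The 250 bases upstream of LUX are shown because it had the smallest adjusted p among the called clock members whose window holds the evening element AAAATATCT, which LHY and CCA1 bind (chr3:17182792-17183041, TAIR10, plus strand, 5′ to 3′). The capitals mark a G-box, CACGTG, which HY5 and PIFs can bind, starting 193 bases before the gene start, and the evening element, starting 53 bases before it.
LUX: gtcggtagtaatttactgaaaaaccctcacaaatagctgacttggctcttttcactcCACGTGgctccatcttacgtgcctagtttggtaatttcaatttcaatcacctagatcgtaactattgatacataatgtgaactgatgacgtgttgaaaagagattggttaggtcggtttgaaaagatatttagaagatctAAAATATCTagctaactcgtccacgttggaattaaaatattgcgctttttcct
The evening element was in 5 of the 21 clock windows (23.8%) and the G-box in 8 (38.1%), against 2.45% and 7.25% of all windows. Among genes with a negative interaction in both fits 5.398% held the evening element, against 2.15% of those with a positive one.

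**Figure D3:**
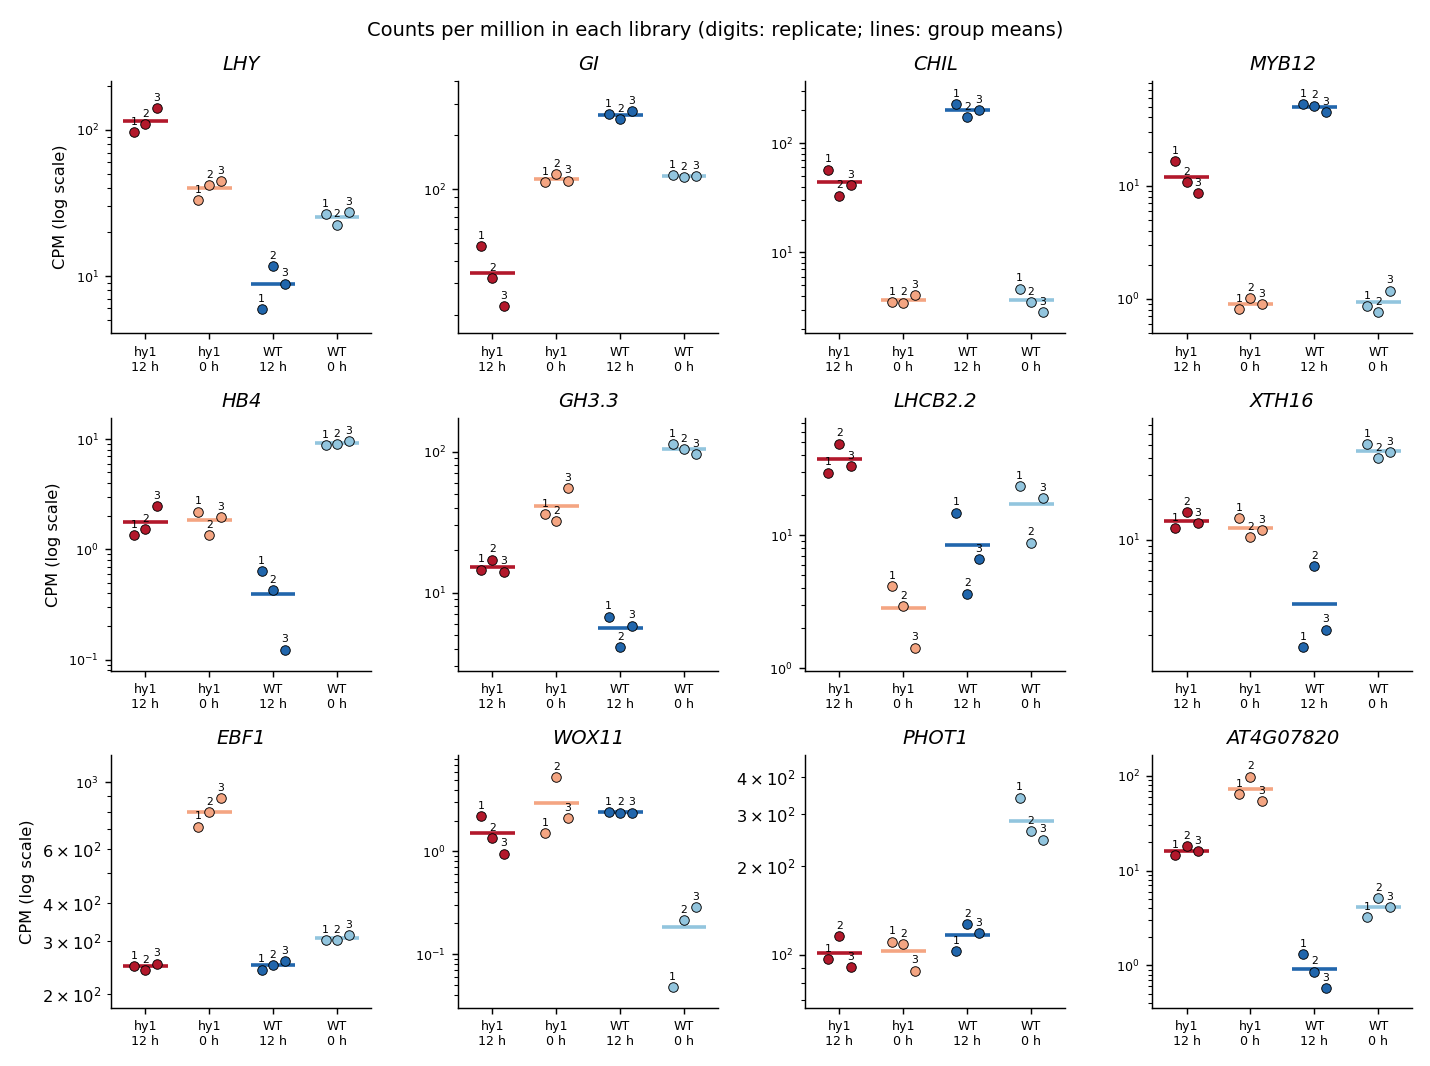
Each panel shows 1 gene in CPM on a log axis, 1 point per library (digits give the replicate) with the group mean as a line, for hy1 at 12 h and 0 h and WT at 12 h and 0 h. LHY and GI stand in opposite order at 12 h, CHIL and MYB12 are called between genotypes at 12 h and not at 0 h, HB4, GH3.3, LHCB2.2 and XTH16 change order between the times, EBF1, WOX11 and PHOT1 are called at 0 h and not at 12 h, and AT4G07820 differs by a similar amount at both times.

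Genes of flavonoid synthesis rose in both genotypes and rose less in hy1 for a few of them. All 12 enzymes tested rose in hy1 and in WT. Of these, 3 had a negative interaction in both fits and none a positive one, and at 12 h 7 were lower in hy1. The list median was -0.65, and -0.58 with groups without reads set to 6 counts, which applied to 4 members. CHIL (AT5G05270), a chalcone isomerase-like protein, had 57.2, 33.1 and 41.2 CPM in hy1 at 12 h and 3.503, 3.48 and 4.05 CPM in hy1 at 0 h, against 228, 173 and 202 CPM in WT at 12 h and 4.66, 3.54 and 2.83 CPM in WT at 0 h. The groups overlapped at 0 h, and at 12 h every WT library was above every hy1 library. The response was 3.57 in hy1 and 5.77 in WT, and the interaction was -2.201 ± 0.30, adjusted p = 0.00031. CHI, chalcone isomerase, had -1.805 ± 0.34, adjusted p = 0.0037. TT7, the flavonoid hydroxylase, had -2.002 ± 0.30, adjusted p = 0.0006, and was also lower in hy1 in darkness (-0.82). Among the 9 regulators, MYB12, which activates flavonol synthesis genes, had 16.5, 10.6 and 8.63 CPM in hy1 at 12 h and 0.805, 1.01 and 0.8902 CPM in hy1 at 0 h, against 52.3, 50.9 and 44.9 CPM in WT at 12 h and 0.856, 0.7598 and 1.18 CPM in WT at 0 h. Its interaction was -1.997 ± 0.33, adjusted p = 0.0013, and its difference in darkness -0.051 ± 0.26, adjusted p = 0.92. PAP2 (-2.09 ± 0.67, adjusted p = 0.049) and EGL3 (1.18 ± 0.33, adjusted p = 0.031), regulators of anthocyanin synthesis, were not called without WT 12 h replicates 2 and 3.

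CHIL had the smallest adjusted p of the called flavonoid enzymes whose window holds a G-box, and its window is shown for that reason (chr5:1563036-1563285, TAIR10, plus strand, 5′ to 3′). The capitals mark CACGTG, starting 67 bases before the gene start.
CHIL: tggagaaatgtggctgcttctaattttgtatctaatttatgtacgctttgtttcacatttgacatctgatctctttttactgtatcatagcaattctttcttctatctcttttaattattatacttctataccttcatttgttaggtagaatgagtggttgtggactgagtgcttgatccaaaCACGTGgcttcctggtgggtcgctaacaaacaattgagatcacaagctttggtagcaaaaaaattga
The G-box was in 4 of the 12 flavonoid enzyme windows (33.3%). It was in 12.8% of the windows of genes with a negative interaction in both fits and in 7.77% of those with a positive one.

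Upstream of flavonoids, 3 of the 8 genes of phenylpropanoid entry had a negative interaction and none a positive one, and 2 held in both fits. PAL1, phenylalanine ammonia-lyase, had 761, 681 and 519 CPM in hy1 at 12 h and 606, 707 and 643 CPM in hy1 at 0 h, against 1376, 1172 and 1271 CPM in WT at 12 h and 626, 635 and 537 CPM in WT at 0 h. It rose in WT (1.09 ± 0.13, adjusted p = 6.7e-06), with a value near 0 in hy1 (0.004 ± 0.13, adjusted p = 0.99), and its interaction was -1.08 ± 0.19, adjusted p = 0.002. PAL2 had -1.02 ± 0.27, adjusted p = 0.021. 4CL3, a coumarate ligase, had -2.704 ± 0.59, adjusted p = 0.0087, and was not called without WT 12 h replicates 2 and 3 (interaction -1.55, adjusted p = 0.12). Its WT 12 h libraries held 71.4, 232 and 168 CPM.

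Light signalling factors showed negative interactions alone, in 8 of 24 members, and 15 of 24 were lower in hy1 at 12 h. In darkness 7 were already lower in hy1 and 4 were higher. The list median was -0.49, and -0.19 without WT 12 h replicates 2 and 3. These replicates lay above replicate 1 in this list by a median of 0.34 on the log2 scale. HY5, the leucine zipper factor that promotes photomorphogenesis, had 44.4, 43.4 and 51.2 CPM in hy1 at 12 h and 15.3, 15.99 and 16.9 CPM in hy1 at 0 h, against 62.1, 73.8 and 68.5 CPM in WT at 12 h and 10.2, 11.5 and 12.6 CPM in WT at 0 h. It rose in both genotypes, by 1.53 in hy1 and 2.58 in WT, and its interaction was -1.05 ± 0.18, adjusted p = 0.0021. BBX22, a B-box protein that acts with HY5, had -1.301 ± 0.22, adjusted p = 0.0016, with no called difference in darkness (0.18). STO, another B-box protein, had -1.17 ± 0.13, adjusted p = 6.7e-05, and overlaps a gene on the opposite strand. SPA2, a partner of COP1, had -0.83 ± 0.11, adjusted p = 0.00028, and PIF3 -1.13 ± 0.20, adjusted p = 0.0024. COP1 (-0.58 ± 0.17), SPA4 (-0.61 ± 0.16) and PKS1 (-0.55 ± 0.15) were called with all libraries alone. Of the 10 photoreceptors, PHOT1, the blue-light receptor of phototropism, had 96.4, 116 and 90.9 CPM in hy1 at 12 h and 111, 108 and 88.3 CPM in hy1 at 0 h, against 103, 127 and 119 CPM in WT at 12 h and 341, 263 and 246 CPM in WT at 0 h. It fell in WT (-1.29 ± 0.14, adjusted p = 1.5e-06), with a value near 0 in hy1 (-0.02 ± 0.14, adjusted p = 0.92), from a dark level that was lower in hy1, and its interaction was 1.27 ± 0.19, adjusted p = 0.00073. UVR8, the ultraviolet-B receptor, had -0.60 ± 0.16, adjusted p = 0.02, and was not called without WT 12 h replicates 2 and 3.

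Genes of light harvesting started lower in hy1 in darkness and rose more. Of 17 antenna genes, 8 had a positive interaction and none a negative one, and 4 held in both fits. In darkness 11 of 17 were lower in hy1 (median -1.49) and at 12 h 5 were higher and none lower (median 0.64). LHCB2.2 (AT2G05070), an antenna protein of photosystem II, had 29.6, 49.01 and 33.3 CPM in hy1 at 12 h and 4.12, 2.91 and 1.43 CPM in hy1 at 0 h, against 14.8, 3.64 and 6.65 CPM in WT at 12 h and 23.4, 8.81 and 18.999 CPM in WT at 0 h. It rose in hy1 (3.72 ± 0.57, adjusted p = 6.6e-05), while its response in WT was not called (-1.03 ± 0.51, adjusted p = 0.1). Its interaction was 4.75 ± 0.76, adjusted p = 0.0011, and 3.95 ± 0.84, adjusted p = 0.014 without WT 12 h replicates 2 and 3. LHCB2.1 had 3.12 ± 0.60, adjusted p = 0.0039. CAB3 and CAB2 had the largest interactions among genes called in both fits and averaging 5 CPM or more, 6.52 ± 1.23 and 5.696 ± 1.12, and CAB3 had 80.7, 76.5 and 77.7 CPM in hy1 at 12 h and 0.568, 0.321 and 0.258 CPM in hy1 at 0 h, against 15.6, 22.98 and 2.16 CPM in WT at 12 h and 10.9, 2.398 and 5.05 CPM in WT at 0 h. The CAB1 to CAB3 copies and the LHCB2 copies are near-identical, so their reads may be split between copies or left out as mapping to several places. WT replicates spread widely in these genes at both times, while the hy1 replicates at 12 h lay close together.

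Photosystem and carbon fixation genes had 15 of 29 positive interactions and none negative, of which 3 held in both fits: DRT112 and PETE1, both plastocyanins, and PSAH2, a subunit of photosystem I that overlaps a gene on the opposite strand. DRT112 had 179, 201 and 231 CPM in hy1 at 12 h and 15.5, 15.1 and 12.2 CPM in hy1 at 0 h, against 162, 136 and 105 CPM in WT at 12 h and 38.5, 25.7 and 26.1 CPM in WT at 0 h. All 29 members rose in hy1 and 26 rose in WT. The list median was 1.47, and 1.26 without WT 12 h replicates 2 and 3. In this list WT 12 h replicates 2 and 3 lay below replicate 1, by a median of -0.44 on the log2 scale, and in the antenna list by -0.69. Chlorophyll synthesis had 5 of 21 members positive and 1 negative, with 1 held in both fits. That was CRD1, a subunit of the cyclase step, with 1.32 ± 0.26, adjusted p = 0.0046, lower in hy1 in darkness (-1.21) and not called at 12 h (0.10). It overlaps a gene on the opposite strand. CHLG, chlorophyll synthase, had 1.19 ± 0.27, adjusted p = 0.011, and 0.89 ± 0.30, adjusted p = 0.1 without WT 12 h replicates 2 and 3. HEMA1, which makes the first committed precursor, was the negative member (-0.69 ± 0.22, adjusted p = 0.0465) and was called in 2 of the 12 fits that left out 1 library.

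Ethylene signalling genes differed mainly in darkness. Of 20 members, 10 were higher and 4 lower in hy1 at 0 h, against 2 higher and 3 lower at 12 h. Interactions were negative in 6 and positive in 4, with 3 and 1 held in both fits. EBF1 (AT2G25490), an F-box protein that degrades the EIN3 factor and is itself induced by ethylene, had 247, 240.4 and 252 CPM in hy1 at 12 h and 713, 796 and 884 CPM in hy1 at 0 h, against 241, 249 and 257 CPM in WT at 12 h and 301, 301 and 313 CPM in WT at 0 h. The hy1 dark libraries stood alone above the other 9. The response was -1.69 in hy1 and -0.29 in WT, the interaction -1.403 ± 0.12, adjusted p = 1.5e-05, and the difference at 12 h -0.015 ± 0.088, adjusted p = 0.91. EBF2 had -1.72 ± 0.21, adjusted p = 0.00018, with an opposite-strand overlap, and ETR2, an ethylene receptor, had -1.098 ± 0.21, adjusted p = 0.004. The ACC synthases went the other way: ACS8 had 2.06 ± 0.56, adjusted p = 0.026 and was lower in hy1 in darkness (-3.68). ACS5 had no read in WT at 12 h and 0.161, 0.0448 and 0.0433 CPM in hy1 at 12 h, against 15.8, 16.4 and 15.3 CPM in WT and 8.096, 7.904 and 9.37 CPM in hy1 in darkness. Its level in WT at 12 h was thus at least 354-fold lower than in WT at 0 h, and at least 2.09-fold lower than in hy1 at 12 h.

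Jasmonate genes also differed mainly in darkness. Of 23 members, 9 were higher in hy1 at 0 h and 1 lower, against 1 and 2 at 12 h. Negative interactions were called in 7 and a positive one in 1, and 2 and 1 held in both fits. WT 12 h replicates 2 and 3 lay above replicate 1 in this list, by a median of 0.52 on the log2 scale, and without them the list median was -0.24 in place of -0.74. JAZ1, a repressor of jasmonate response, had 27.01, 24.4 and 23.4 CPM in hy1 at 12 h and 80.8, 127 and 192 CPM in hy1 at 0 h, against 30.9, 126 and 88.5 CPM in WT at 12 h and 54.1, 40.01 and 41.02 CPM in WT at 0 h. Its interaction of -3.28 ± 0.67, adjusted p = 0.0055 became -1.85 ± 0.64, adjusted p = 0.11 without those 2 libraries. CYP94B3, which inactivates the active jasmonate conjugate, had 18.18, 16.1 and 14.4 CPM in hy1 at 12 h and 66.9, 79.8 and 221 CPM in hy1 at 0 h, against 20.1, 43.6 and 28.5 CPM in WT at 12 h and 13.3, 7.03 and 10.5 CPM in WT at 0 h. It fell in hy1 (-2.92) and rose in WT (1.58), and its interaction of -4.49 ± 0.62, adjusted p = 0.00032 held in both fits. VSP1 (-1.84 ± 0.34, adjusted p = 0.0028) and VSP2 (1.71 ± 0.48, adjusted p = 0.029), jasmonate-induced storage proteins, were called in both fits with opposite signs.

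Among 16 gibberellin genes, 6 had positive and 2 negative interactions, and 5 and 1 held in both fits. GAI, a DELLA repressor of gibberellin response, had 25.7, 25.1 and 24.3 CPM in hy1 at 12 h and 39.4, 41.8 and 40.01 CPM in hy1 at 0 h, against 16.5, 10.95 and 13.5 CPM in WT at 12 h and 69.1, 62.9 and 62.8 CPM in WT at 0 h. It fell less in hy1 (-0.69) than in WT (-2.25), and its interaction was 1.56 ± 0.19, adjusted p = 0.00013. GID1B, a gibberellin receptor, had -1.99 ± 0.34, adjusted p = 0.0018, with a called rise in WT (1.77) and a response in hy1 that was not called (-0.22). GA2OX4 (2.99 ± 0.39, adjusted p = 0.00023) and GA2OX1 (3.896 ± 0.68, adjusted p = 0.0021) encode enzymes that inactivate gibberellins, and GA2OX1 had 6 reads in all 3 hy1 dark libraries. Of the 14 cytokinin genes, CKX5, a cytokinin-degrading enzyme with an opposite-strand overlap (1.54 ± 0.24, adjusted p = 0.00093), and ARR7, a response regulator (1.19 ± 0.21, adjusted p = 0.0021), were positive in both fits. ARR5, another response regulator, was negative (-0.69 ± 0.17, adjusted p = 0.018) and not called without WT 12 h replicates 2 and 3.

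Adventitious and lateral root regulators showed no common direction. Of 23 members, 2 were positive and 4 negative, and 2 and 2 held in both fits, with a median of -0.46, and -0.084 without WT 12 h replicates 2 and 3. WT 12 h replicates 2 and 3 lay above replicate 1 in this list by a median of 0.53 on the log2 scale. WOX11 (AT3G03660), a homeobox factor that marks founder cells of adventitious roots, had 2.21, 1.34 and 0.952 CPM in hy1 at 12 h and 1.51, 5.25 and 2.11 CPM in hy1 at 0 h, against 2.41, 2.38 and 2.39 CPM in WT at 12 h and 0.0476, 0.214 and 0.289 CPM in WT at 0 h. WT in darkness held 24 reads in all 3 libraries. The gene rose in WT (3.67 ± 0.61, adjusted p = 0.00011), its response in hy1 was not called (-0.97 ± 0.49, adjusted p = 0.12), and its interaction was -4.64 ± 0.78, adjusted p = 0.0016. Without WT 12 h replicates 2 and 3 it was -4.63 ± 0.92, adjusted p = 0.0095. PLT1, a root meristem factor, had 0.6296, 0.784 and 0.887 CPM in hy1 at 12 h and 2.01, 1.49 and 1.499 CPM in hy1 at 0 h, against 0.772, 0.375 and 0.6797 CPM in WT at 12 h and 0.285, 0.237 and 0.222 CPM in WT at 0 h. It fell in hy1 and rose in WT, both at low levels, with an interaction of -2.42 ± 0.52, adjusted p = 0.0075. ARF10, a repressing auxin response factor, had 0.82 ± 0.16, adjusted p = 0.0042 with no called dark difference (-0.20). LBD29, which acts in root founder divisions, had 1.36 ± 0.36, adjusted p = 0.023 and a dark difference of -1.46. It was called in 9 of the 12 fits that left out 1 library. PUCHI (-3.07 ± 0.85, adjusted p = 0.028) and PLT3 (-1.59 ± 0.44, adjusted p = 0.026) were not called without WT 12 h replicates 2 and 3, at adjusted p = 0.62 and 0.57.

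**Figure D4:**
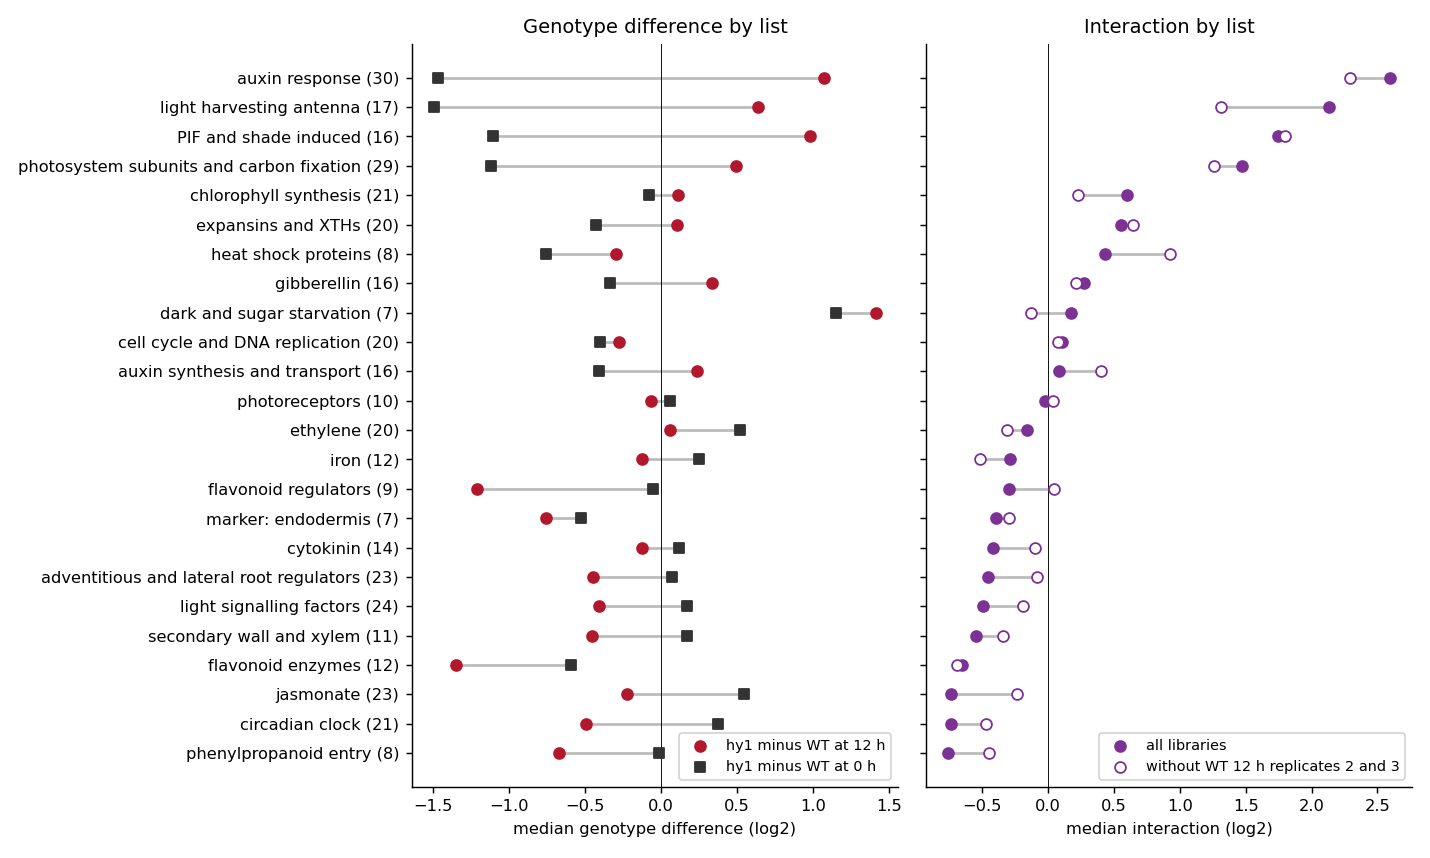
Left, the median over each list's tested members (number in brackets) of the log2 difference hy1 minus WT at 12 h (red circles) and at 0 h (dark squares). Right, the median interaction with all libraries (filled) and without WT 12 h replicates 2 and 3 (open). Lists of few tested members, such as stomatal lineage (4 tested, median interaction 3.58), are not shown. Among the lists shown, auxin response, antenna, and PIF and shade have the highest medians (2.60, 2.13 and 1.75). Their genotype differences cross from below 0 at 0 h to above 0 at 12 h. Phenylpropanoid, clock and jasmonate lists have medians of -0.76 to -0.74.

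Outside the lists, genes with large interactions in both fits included several given here by locus number, since the gene reference used held no other symbol for them. A missing symbol does not mean that a gene's function or family is unknown. AT1G06360 had 13.2, 14.9 and 21.6 CPM in hy1 at 12 h and 3.98, 3.16 and 4.15 CPM in hy1 at 0 h, against 3.02, 3.62 and 0.741 CPM in WT at 12 h and 31.6, 19.4 and 18.24 CPM in WT at 0 h. It rose in hy1 (2.14) and fell in WT (-3.25), and the interaction was 5.38 ± 0.67, adjusted p = 0.00019. AT4G28780 had 4.602 ± 0.42, adjusted p = 1.6e-05 and AT4G29030 4.42 ± 0.91, adjusted p = 0.0058, with the same opposite responses. AT4G38860, which was called at 12 h and not at 0 h, had 1.79, 2.02 and 3.55 CPM in hy1 at 12 h and 10.8, 11.7 and 13.1 CPM in hy1 at 0 h, against 0.234, 0.429 and 0.0824 CPM in WT at 12 h and 14.1, 16.5 and 16.4 CPM in WT at 0 h. AT2G19660 had 4.74 ± 0.49, adjusted p = 3.7e-05, with 12 reads in WT at 12 h, and AT1G78450 had 4.37 ± 0.74, adjusted p = 0.0017, with 5 reads in hy1 at 0 h. ICS2, an isochorismate synthase, was lower in hy1 at both times, by -4.04 at 0 h and -0.58 at 12 h, where the genotypes overlapped. It had 6.796, 5.53 and 4.44 CPM in hy1 at 12 h and 0.923, 0.825 and 1.03 CPM in hy1 at 0 h, against 5.64, 11.03 and 8.53 CPM in WT at 12 h and 13.8, 13.1 and 18.8 CPM in WT at 0 h. The interaction was 3.45 ± 0.32, adjusted p = 2e-05, and the gene overlaps another on the opposite strand.

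The most negative interactions in both fits were of genes high in the hy1 dark libraries. GSTU3, a glutathione transferase, had 0.517, 0.583 and 0.671 CPM in hy1 at 12 h and 12.6, 46.8 and 12.2 CPM in hy1 at 0 h, against 0.515, 0.804 and 0.947 CPM in WT at 12 h and 1.57, 1.04 and 1.201 CPM in WT at 0 h. The hy1 dark replicates spread, with replicate 2 the highest, and every one was above the other 9 libraries. Its interaction was -4.59 ± 0.66, adjusted p = 0.00048. AT1G49570 had 6.59, 4.59 and 6.296 CPM in hy1 at 12 h and 141, 295 and 192 CPM in hy1 at 0 h, against 3.16, 1.02 and 1.401 CPM in WT at 12 h and 4.61, 1.21 and 8.99 CPM in WT at 0 h, and the interaction was -3.76 ± 0.79, adjusted p = 0.0068, with hy1 higher at both times. DREB2A, a factor of drought and heat response that overlaps a gene on the opposite strand, had -4.55 ± 0.52, adjusted p = 9.8e-05, with opposite responses of -1.43 in hy1 and 3.12 in WT. AT4G34380 (-4.18 ± 0.43), AT2G34610 (-4.24 ± 0.64), CML38, a calmodulin-like protein (-3.63 ± 0.70), and PRX52, a peroxidase (-3.501 ± 0.62), followed. Of the 7 dark and sugar starvation genes, 6 were higher in hy1 at 12 h and 6 at 0 h. SEN1, a senescence-associated gene, had 40.99, 61.2 and 54.03 CPM in hy1 at 12 h and 272, 204 and 201 CPM in hy1 at 0 h, against 5.48, 8.33 and 5.83 CPM in WT at 12 h and 92.3, 122 and 133 CPM in WT at 0 h. It fell less in hy1, with an interaction of 2.04 ± 0.41, adjusted p = 0.0051. DIN2, the other called member of this list, went the other way, with an interaction of -2.50, adjusted p = 0.032. The list median was 0.18, and -0.13 without WT 12 h replicates 2 and 3. HSFA2, a heat shock factor, was the 1 called member among 8 heat shock genes (1.73 ± 0.41, adjusted p = 0.012), lower in hy1 at both times.

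The 3512 genes that differed in darkness with no called interaction held 1819 that were higher in hy1 and 1693 that were lower. AT4G07820 is the plainest example, with 14.6, 18.19 and 16.01 CPM in hy1 at 12 h and 64.4, 98.2 and 54.5 CPM in hy1 at 0 h, against 1.31, 0.857 and 0.577 CPM in WT at 12 h and 3.26, 5.08 and 4.09 CPM in WT at 0 h. It was higher in hy1 by 4.12 ± 0.31, adjusted p = 7.1e-07 at 0 h and by 4.16 ± 0.33, adjusted p = 1.4e-06 at 12 h, and its responses of -2.15 in hy1 and -2.18 in WT left an interaction of 0.031 ± 0.39, adjusted p = 0.96. AT1G60590 was higher in hy1 at 0 h by 3.35 and at 12 h by 2.42. On the lower side, QQS, a gene that affects starch content, had 1.97, 1.32 and 1.49 CPM in hy1 at 12 h and 1.37, 0.389 and 0.562 CPM in hy1 at 0 h, against 11.6, 7.55 and 7.68 CPM in WT at 12 h and 9.54, 11.4 and 8.14 CPM in WT at 0 h. AT1G04800, with an opposite-strand overlap, and AT4G04750 were also lower in hy1 at both times, by -3.300 and -2.698 at 0 h. Not every gene of this group had a stable difference. CDR1, an aspartic protease, had 0.0323, 0.179 and 0.0433 CPM in hy1 at 12 h and 8.498, 64.4 and 6.75 CPM in hy1 at 0 h, against 0.0468, 0.0536 and 0.0412 CPM in WT at 12 h and 0.238, 0.0475 and 0.133 CPM in WT at 0 h. The interaction of CDR1, -6.81 ± 2.66, adjusted p = 0.097, was large and missed the threshold. EXPA12 had 10.2, 36.3 and 12.6 CPM in hy1 at 0 h and 1.67, 1.85 and 1.74 CPM in WT at 0 h, and no read at 12 h in either genotype, so its interaction cannot be measured. At 0 h AT5G15780 was lower in hy1 (-2.71 ± 0.79, adjusted p = 0.02), but its WT 12 h libraries held 39.9, 515 and 109 CPM. All 8 cell cycle and DNA replication genes that were lower in hy1 in darkness belonged here, since none of the 20 members had a called interaction. Among them the largest absolute value was that of CYCD3;3, a D-type cyclin (1.04 ± 0.41, adjusted p = 0.096).

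In some lists no call held without WT 12 h replicates 2 and 3. All 4 called secondary wall and xylem genes of 11 were negative and none held without them: LAC4, a laccase of lignin formation, had 98.2, 75.8 and 71.1 CPM in hy1 at 12 h and 138, 140.3 and 127 CPM in hy1 at 0 h, against 105, 215 and 254 CPM in WT at 12 h and 139.9, 117 and 89.7 CPM in WT at 0 h. WT 12 h replicates 2 and 3 stood above all other libraries in it, and its interaction of -1.45 ± 0.39, adjusted p = 0.025 became -0.57 ± 0.36, adjusted p = 0.47 without them. LAC17, VND7 and MYB46 also lost their calls without them. The median of this list was -0.55 with all libraries and -0.35 without WT 12 h replicates 2 and 3. The 3 called iron genes of 12, BTS, FRO3 and PYE, were negative and lost their calls without WT 12 h replicates 2 and 3. The iron list median did not shrink, at -0.29 with all libraries and -0.51 without those 2. In this list WT 12 h replicates 2 and 3 lay below replicate 1, by a median of -0.36 on the log2 scale. Among the largest interactions lost, ENODL1 had 52.7, 61.6 and 50.98 CPM in hy1 at 12 h and 276, 329 and 242 CPM in hy1 at 0 h, against 70.9, 676 and 234 CPM in WT at 12 h and 107, 108 and 151 CPM in WT at 0 h, and AT1G19900 had 0.4197, 0.583 and 0.303 CPM in hy1 at 12 h and 63.1, 144 and 86.9 CPM in hy1 at 0 h, against 0.328, 1.02 and 0.906 CPM in WT at 12 h and 7.47, 6.43 and 6.32 CPM in WT at 0 h. In AT1G19900 the value stayed large without them (-3.44 ± 1.03, adjusted p = 0.07). CYP78A10 had no read in WT at 12 h and 16.5, 22.98 and 19.3 CPM in WT at 0 h. By exon length, the median interaction ran from 0.50 in genes of more than 400 and at most 800 bases to -0.28 above 3200 bases with all libraries, and from 0.096 to -0.12 without those 2. The part of this length difference in the results was not tested.

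**Figure D5:**
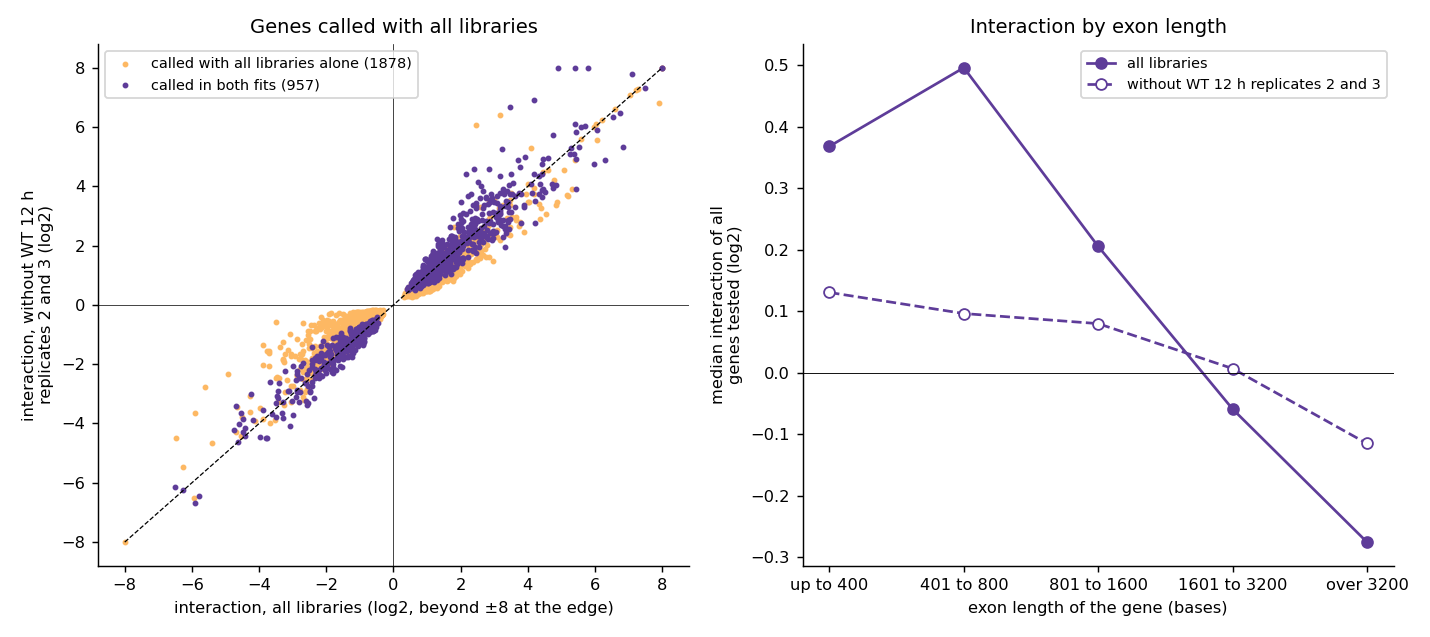
Left, the interaction of the 2835 called genes with all libraries (x axis, log2) against the value without WT 12 h replicates 2 and 3 (y axis, log2), with 957 genes called in both fits and 1878 called with all libraries alone. Right, the median interaction of all genes tested by exon length, which spans 0.50 to -0.28 with all libraries (filled) and 0.13 to -0.12 without the 2 libraries (open).

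Markers of other tissue also differed between the groups. Endodermis markers summed to 358 to 395 CPM in hy1 at 12 h and 301 to 364 CPM in hy1 at 0 h, against 588 to 761 CPM in WT at 12 h and 413 to 512 CPM in WT at 0 h, and 1 of 7 had a called interaction (CASP5, -1.02 ± 0.32, with an opposite-strand overlap). Shoot meristem markers summed to 59.7 to 70.7 CPM and 53.2 to 57.8 CPM in hy1 at 12 h and 0 h, against 26.99 to 32.97 CPM and 44.5 to 53.9 CPM in WT. STM (2.16 ± 0.44, adjusted p = 0.0054) and CLV1 (0.37 ± 0.11, adjusted p = 0.04) were both called. Stomatal lineage markers summed to 12.7 to 21.1 CPM and 1.22 to 2.15 CPM in hy1, against 4.22 to 14.5 CPM and 3.96 to 7.32 CPM in WT, and TMM was called (4.02 ± 0.90, adjusted p = 0.0099). None of these 4 calls held without WT 12 h replicates 2 and 3. Root hair and seed reserve markers summed to at most 2.04 CPM in any library, with EXP7 and COBL9 at 0 in hy1, RHD6 at 0 in WT, CRB at 0 in hy1 and SESA3 at 0 in WT. The part of these tissues in the interactions of greening, auxin and wall genes was not tested.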

How the data were processed

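Poly-A RNA of hypocotyls was sequenced in 18 libraries, 3 in each of 6 groups (hy1 and WT at 0, 12 and 24 h). The protocols in the labels name TRIzol extraction and a TruSeq poly-A library kit. Deposited raw read counts were analysed, which per the file headers come from featureCounts 2.0.3 run on TAIR10 gene models without regard to strand. Mates were counted singly, so that 75.2% of counts from 1 to 10 were even, and reads with several map positions were dropped. Reads of near-identical paralogs and of overlapping genes cannot be assigned with certainty. STAR 2.7.8a, StringTie 2.1.3 and HTSeq are named in the submitters' processing notes with no role. The deposited FPKM values were not used here.

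Tests were run in R 4.3.3 (edgeR 4.0.16, DESeq2 1.42.0 and, for edgeR's use, limma 3.58.1). A single quasi-likelihood fit in edgeR with 6 group means, TMM scaling and filterByExpr on the groups took in all 18 libraries, with no replicate block. Contrasts were the interaction at 12 h, hy1 against WT at 12 h and at 0 h, and 12 h against 0 h in hy1 and in WT. Two-sided p-values got a Benjamini-Hochberg adjustment within a contrast, and a gene was called below 0.05. Errors of log2 values are standard errors worked back from the test, as the absolute log2 value over the square root of the quasi-likelihood F value. They therefore add nothing to the p-value. Depth ran from 38469946 to 59905064 counts per library, and floors (6 counts, or 3 fragments, over a group with no read) cover counting error only, since reads of amplified libraries are not independent molecules. The procedure was tested on simulated data.

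Upstream windows of 250 bases were read from the reference genome, on which 98.98% of 50648 introns of the count table's gene models had the usual splice letters, and 99.95% of the 32548 genes found had the same start and end. The 29 gene lists hold 428 loci, of which 398 were tested. The genes and lists were chosen with earlier results of these data known, so counts over lists are descriptions. Named were the chromophore genes, the 8 highest and 8 lowest interactions called in both fits, per list the up to 4 called members of smallest adjusted p, 3 genes per class, 8 dark differences and the 4 largest calls lost without WT 12 h replicates 2 and 3, each averaging 5 CPM or more where picked by size. Other list members are named as examples chosen after their values were seen. Alternatives used upper-quartile factors or DESeq2 size factors, other count filters, the DESeq2 Wald test, the 12 libraries alone, a replicate block, libraries left out, and stricter thresholds.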

Additional observations from a re-analysis of the deposited data

Results flagged for a closer look

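The 12 h response differed between hy1 and WT by the test of the interaction itself in 2835 genes (13.5% of those tested), so the response of many genes cannot be given as 1 value for both genotypes. In 13 of the 115 genes named by the rules given above, the responses of the 2 genotypes were also called in opposite directions. List members named only as examples, such as LUX, were not counted here. Upward in hy1 and downward in WT were LHY (interaction 3.07), ICS2 (3.45), AT1G06360 (5.38), AT4G28780 (4.60) and AT4G29030 (4.42). Downward in hy1 and upward in WT were GI (-2.89), LNK1 (-2.24), PRR3 (-1.48), PLT1 (-2.42), DREB2A (-4.55), CYP94B3 (-4.49), AT4G34380 (-4.18) and LAC4 (-1.45). Of these 13, LAC4 alone was not called without WT 12 h replicates 2 and 3 (-0.57 ± 0.36, adjusted p = 0.47).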

How the results depend on the processing

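No called interaction of the 115 genes named by the rules changed its sign under any alternative run. Of 2643 comparisons of a named interaction with an alternative, 2344 kept sign and side of the threshold, 269 lost a call, 7 gained one and 23 changed the sign of a value that was not called in either fit. Without WT 12 h replicates 2 and 3, interactions that were not called turned in HY1 (-0.228), HY2 (0.451), AT4G07820 (-0.477) and AT1G60590 (0.017), and without WT 24 h replicate 3 as well in HY1 (-0.245), HY2 (0.433) and AT4G07820 (-0.493). Leaving out 1 library at a time, such values ran through 0 in HY1 (-0.0449 to 0.225), HY2 (-0.348 to 0.157), AT4G07820 (-0.221 to 0.391), AT5G15780 (-0.412 to 1.65) and HO2 (-0.114 to 0.319). Dark differences that were not called turned in CHIL (-0.043 with upper-quartile factors, -0.0077 without WT 12 h replicates 2 and 3, and -0.167 to 0.203 leaving out 1 library), and leaving out 1 library in MYB12 (-0.189 to 0.147), HY2 (-0.0005 to 0.169) and HO2 (-0.234 to 0.0091). The counts moved most with the WT 12 h libraries. Without WT 12 h replicates 2 and 3, interactions fell to 1134, against 2835 with all libraries, and hy1 differed from WT at 12 h in 1600 genes. The classes then held 156 genes (12 h, not 0 h), 751 (0 h, not 12 h), 46 (both, same sign), 143 (both, opposite signs), 38 (neither) and 5804 (0 h with no interaction). Without WT 24 h replicate 3 as well, interactions numbered 2678, of which 1741 were shared, the genotypes differed in 4085 genes at 12 h and 9750 at 0 h, and the classes (12 h, not 0 h; neither; 0 h with no interaction) held 470, 86 and 7628.

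Leaving out 1 library at a time gave 1661 to 8626 interactions, 4057 to 11090 genes between genotypes at 12 h and 3424 to 6519 at 0 h, 9631 to 13274 responses in WT and 7777 to 10583 in hy1. The classes ran from 431 to 5065 (12 h, not 0 h), 673 to 1670 (0 h, not 12 h), 80 to 549 (both, same sign), 211 to 904 (both, opposite signs), 76 to 438 (neither) and 2386 to 4315 (0 h with no interaction). The highest interaction count was without WT 12 h replicate 1, which shared 2833 of the calls, and the cause was not tested. The DESeq2 Wald test called 4286 interactions, sharing 2834, with 1713, 277 and 267 genes in the classes 12 h not 0 h, both same sign, and neither. The 12 libraries alone gave 2245 interactions, with 87 (both, same sign) and 107 (neither).

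At adjusted p under 0.01 there were 937 interactions, 3268 differences at 12 h and 2884 at 0 h, and the classes in the order above held 275, 465, 28, 99, 70 and 2292. With a fold of at least 2 there were 1584 interactions, 2062 differences at 12 h, 1763 at 0 h, 3883 responses in hy1 and 5002 in WT, and classes of 394, 591, 31, 118, 450 and 1023. With an unadjusted p at 0 h, the class neither held 25 and the class 0 h with no interaction 5580. The replicate block gave 2812 interactions, 2614 of them shared, and it is given here alone, since the labels do not say that a number pairs libraries. Over 18 pairs of same-numbered libraries of different groups, deviations from the group means correlated at r = -0.087 to 0.19. The 1 pair over 0.1 was hy1 12 h replicate 1 with WT 12 h replicate 1. Pairs of unlike number were not compared. DESeq2 size factors (2878), upper-quartile factors (2745), no filter (2496) and a stricter filter (2835) kept the count within 1.5 times.

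Genes under about 1 CPM rest on few reads, and short genes were under-represented in those 2 libraries.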

Other observations

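Among the 171 genes whose interaction was called while neither time showed a called genotype difference, YAB3, a YABBY factor of leaf polarity, had 10.1, 11.9 and 20.5 CPM in hy1 at 12 h and 3.76, 3.34 and 2.53 CPM in hy1 at 0 h, against 3.3002, 12.9 and 1.87 CPM in WT at 12 h and 9.21, 7.08 and 6.18 CPM in WT at 0 h. Its interaction was 2.46 ± 0.78, adjusted p = 0.0479, and 3.34 ± 0.68, adjusted p = 0.01 without WT 12 h replicates 2 and 3. UMAMIT36, of a family of amino acid transporters, had 0.452, 0.224 and 0.671 CPM in hy1 at 12 h and 24.7, 22.5 and 51.9 CPM in hy1 at 0 h, against 2.25, 0.643 and 0.906 CPM in WT at 12 h and 14.2, 16.9 and 15.97 CPM in WT at 0 h. Its interaction was -2.57 ± 0.72, adjusted p = 0.029, and -3.36 ± 0.73, adjusted p = 0.015 without those 2 libraries. AT1G70720, called at 12 h and not at 0 h with all libraries, had 3.45, 2.196 and 1.64 CPM in hy1 at 12 h and 5.73, 6.37 and 4.87 CPM in hy1 at 0 h, against 4.54, 24.7 and 12.6 CPM in WT at 12 h and 2.09, 2.11 and 3.204 CPM in WT at 0 h. Its WT 12 h replicates spread widely, and its interaction of -3.701 ± 0.74, adjusted p = 0.0049 became -2.06 ± 0.66, adjusted p = 0.088 without replicates 2 and 3.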
